A study of Mus musculus with 6 samples.

Results

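Imprinted genes are transcribed mainly from the copy inherited from 1 parent, because DNA methylation laid down in the germ line differs between the parental copies. Many of them regulate growth, and in the mouse several that promote it, such as the ligand gene Igf2, are read from the paternal copy, whereas several that restrain it, such as the clearing receptor gene Igf2r and Phlda2, are read from the maternal copy. In mouse blood-forming stem cells, imprinted genes are expressed in the most primitive cells and have been tied to the control of quiescence. The 10 genes described here are imprinted growth genes that lie outside the Meg3-Rian locus: Plagl1, Ndn, Igf2, Igf2r, Grb10, Sgce, Phlda2, Impact, Peg3 and Gnas. They were chosen by name, and every probe set annotated to 1 of them alone was taken, which gave 34 probe sets for 10 of the 18193 genes that the array annotation names singly.

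The 10 genes were compared in 2 groups of hematopoietic stem cells from bone marrow, Lower-SP and Upper-SP, on 3 arrays each. Both groups came from male C57Bl/6 (CD45.1) mice aged 10 weeks, were sorted as Lineage-, Sca-1+ and c-Kit+ cells, and differ in where they lie in the side population, the tail of cells that efflux a DNA-binding dye. The mice were pooled in 3 pools and sorted on different days. The arrays carry no information on which parental copy a transcript came from, and in bulk RNA fewer expressing cells and less RNA per cell cannot be told apart.

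A probe set is a group of array probes read as 1 value, given here on the log2 GCRMA scale of the deposited table, where a step of 1 is a doubling. A probe set was tested if it lay above log2 4, the dense band of background, on at least 3 of the 6 arrays. Of the 34 probe sets of the 10 genes, 20 were tested, all of them above log2 4 on all 6 arrays (lowest value 4.72), and at least 1 probe set of each gene was among them. Of the 14 others, 12 stayed under log2 4 on every array and 2 exceeded it on 1 array (highest value 4.32). Differences are Lower-SP minus Upper-SP, SD is over the 3 arrays of a group, SE and adjusted p come from limma fitted across all 19613 tested probe sets, and a probe set was called when its adjusted p was under 0.05.

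The arrays held 19317 to 19666 probe sets above log2 4, and correlated at 0.952 to 0.991 within a group and at 0.911 to 0.938 between groups across probe sets. All 11 measured genes of a stem cell marker list were tested, among them Procr at 13.59, 13.61 and 13.84 in Lower-SP, against 13.74, 13.84 and 13.61 in Upper-SP. Of the 11, Abcg2, Kit and Tal1 were called lower (27.3%, beside 27.7% of all genes). Abcg2 passed in every alternative that kept 2 or more arrays a group. The count was 1 with Lower-SP replicate 2, Upper-SP replicate 1 or Upper-SP replicate 2 omitted. Lower-SP replicates 1 and 2 carried the most transcripts of neutrophils: the mean of 7 tested genes of that list was 10.23, 9.60 and 5.96 in Lower-SP, against 5.47, 5.79 and 4.30 in Upper-SP, while Elane and Cd177 stayed under log2 4 on all 6. In Lower-SP replicate 3, S100a8 (9.16), S100a9 (7.38), Chil3 (4.94) and Lcn2 (4.45) still lay above all Upper-SP arrays, whereas Camp, Ltf and Ngp did not. The mean of 3 tested plasma cell genes was 7.64, 7.40 and 5.25 in Lower-SP, against 8.90, 9.12 and 8.56 in Upper-SP, with 4 of 7 markers under log2 4 throughout, and the 6 tested stromal and endothelial genes averaged 5.45 to 6.09 in Lower-SP and 5.80 to 6.13 in Upper-SP, with 8 of 15 under log2 4 throughout. Single genes of these lists went their own ways: Igha fell by 4.42 while Sdc1 differed by -0.07 without passing, and Postn was called lower while Vwf differed by 1.40 without passing (limma adjusted p = 0.069). The part of these cells in the results was not tested. Differences at several members are also given without Lower-SP replicates 1 and 2. That leaves 1 Lower-SP array, too few to measure spread, so only differences are reported for it. Tallies of alternatives include it.

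Plagl1 and Sgce stood out from the other members, in opposite directions. Plagl1, a zinc finger transcription factor read from the paternal copy that can arrest the cell cycle, was 6.59-fold higher in Lower-SP cells at its brightest probe set. At its other tested probe set it was 3.13-fold higher, and the Plagl1 probe set annotated to a RefSeq mRNA stayed under log2 4 on all 6 arrays. Sgce, which encodes the epsilon subunit of the sarcoglycan complex in the cell membrane and is also read from the paternal copy, was 2.69-fold lower. Of the 20 tested probe sets 7 were called, 3 higher and 4 lower (35%), beside 28.1% of all tested probe sets (10.7% higher and 17.5% lower). With each gene read through its brightest tested probe set, 5 of the 10 genes were called, Plagl1 and Impact higher and Sgce, Phlda2 and Gnas lower, beside 27.7% of 9460 genes (7.05% higher and 20.7% lower). The median difference was -0.18 over the 20 probe sets and -0.14 over all tested probe sets, and by gene it was -0.09 over the 10 genes and -0.24 over all genes. The 3 Lower-SP values lay clear of the 3 Upper-SP values in 9 of the 20 (45%), beside 46.1% of all tested probe sets, and at the brightest probe set of 5 of the 10 genes (50%), beside 45.7% of all genes. The number of called probe sets was 4 when Lower-SP replicate 2 was omitted, 3 when Upper-SP replicate 1 was and 4 when Upper-SP replicate 2 was. The count of 5 genes was 3 when Lower-SP replicate 1 was omitted, and 2 when Lower-SP replicate 2, Upper-SP replicate 1 or Upper-SP replicate 2 was. With each gene read through its probe set of smallest p, 1 was higher and 4 lower. The calls at Plagl1 1426208_x_at (higher), Sgce 1420688_a_at (lower) and Impact 1415911_at (lower) passed in every alternative that kept 2 or more arrays a group. Impact 1415911_at is not the brightest probe set of its gene, which was called higher.

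**Figure D1:**
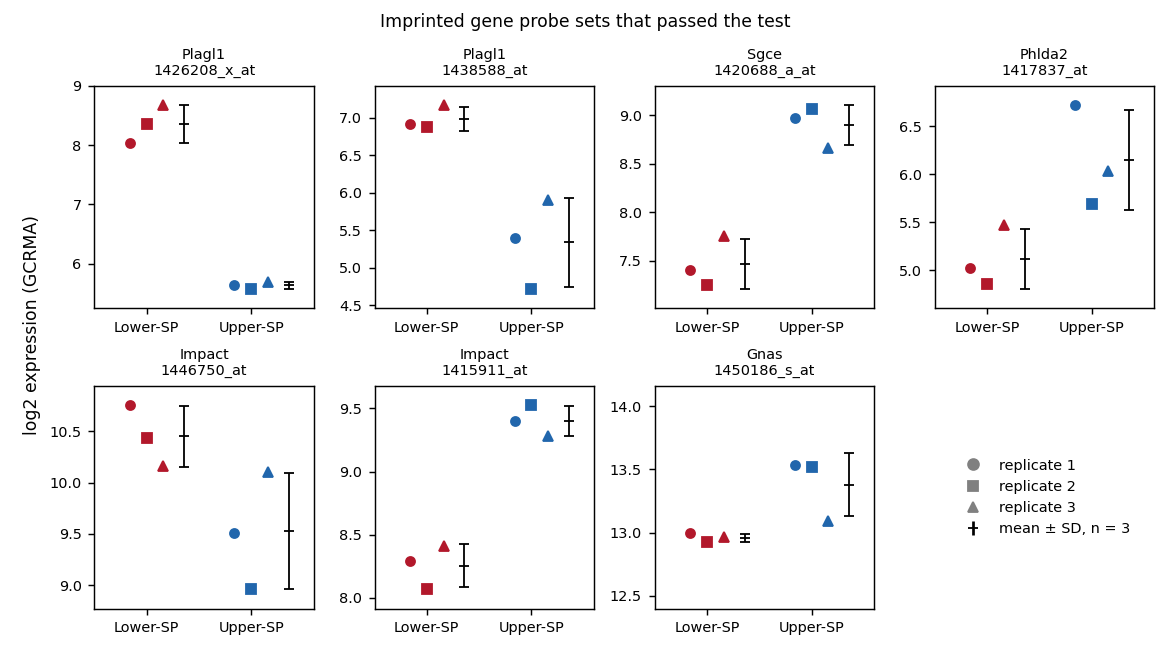
Log2 expression (vertical axis) of the 7 called probe sets on each array, with Lower-SP in red at the left of each panel and Upper-SP in blue at the right, symbols for replicate 1 to 3 and bars for the mean ± SD (n = 3). The groups are widest apart at Plagl1 1426208_x_at (8.03 to 8.67 against 5.57 to 5.70) and come within 0.06 of each other at Impact 1446750_at.

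The start regions of Plagl1, the member with the largest difference, and of Phlda2, called lower, are shown with their CpG dinucleotides, the sites at which DNA methylation is placed. The window of Phlda2 is not the germ line mark of its cluster, which lies at Kcnq1ot1. Both are the 250 bases before the annotated start, from RefSeq on GRCm38.p6, printed 5′ to 3′ on the strand of the gene with each CpG in capitals. The Plagl1 window lies at chr10:13090582-13090831 on the + strand and the Phlda2 window at chr7:143502525-143502774 on the - strand.
Plagl1: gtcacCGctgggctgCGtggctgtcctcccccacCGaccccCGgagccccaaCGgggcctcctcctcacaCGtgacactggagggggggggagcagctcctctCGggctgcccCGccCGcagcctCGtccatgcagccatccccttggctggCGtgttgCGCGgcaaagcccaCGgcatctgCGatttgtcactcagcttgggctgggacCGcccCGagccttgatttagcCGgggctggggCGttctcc
Phlda2: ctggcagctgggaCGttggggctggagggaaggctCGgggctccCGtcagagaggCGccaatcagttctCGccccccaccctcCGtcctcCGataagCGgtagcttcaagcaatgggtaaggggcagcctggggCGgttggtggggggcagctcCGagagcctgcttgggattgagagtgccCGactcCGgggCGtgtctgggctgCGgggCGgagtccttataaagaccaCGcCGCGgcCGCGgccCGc
The Plagl1 window holds 19 CpGs and the Phlda2 window 21, against a median of 6 over all 32851 windows of the same length. With several starts for Gnas, Igf2 and Grb10, 15 windows were matched for 8 of the 10 genes, and their CpG counts ran from 1 at 1 start of Igf2 to 40 at 1 start of Grb10. The letters TGCCGC on either strand, the core of the site bound by ZFP57, a protein that keeps imprinting methylation in the early embryo, occurred in 1 of the 15 windows, that of Plagl1, and in 8.68% of all windows. Methylation was not measured in these cells.

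Among the transcription regulators, Plagl1 had 2 tested probe sets, both called higher. Probe set 1426208_x_at read 8.03, 8.36 and 8.67 in Lower-SP and 5.63, 5.57 and 5.70 in Upper-SP. All 3 Lower-SP arrays were high, and the lowest of them lay 2.33 above the highest Upper-SP array. The means were 8.35 ± 0.32 in Lower-SP and 5.63 ± 0.06 in Upper-SP, a difference of 2.72 (SE 0.23, 95% interval 2.18 to 3.26, limma adjusted p = 0.0011). Probe set 1438588_at, placed on another Plagl1 sequence, read 6.92, 6.87 and 7.17 in Lower-SP and 5.39, 4.72 and 5.90 in Upper-SP. Here too the groups did not overlap, with more spread among the Upper-SP arrays. Its difference was 1.65 (SE 0.32, limma adjusted p = 0.010). The remaining Plagl1 probe set, 1450533_a_at, which is the one annotated to a RefSeq mRNA of the gene, stayed between 2.31 and 2.37 on all 6 arrays. Lower-SP replicate 3 read highest at both tested Plagl1 probe sets. Its neutrophil average was the lowest of its group, at 5.96, against 4.30 to 5.79 in Upper-SP. The part of neutrophil transcripts in the Plagl1 difference was not tested. Without Lower-SP replicates 1 and 2 the difference was 3.04 at 1426208_x_at and 1.83 at 1438588_at, with 1 Lower-SP array left. The call at 1438588_at was lost without Upper-SP replicate 1 (limma adjusted p = 0.053).

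Peg3 encodes a zinc finger protein, read from the paternal copy, that marks several adult stem and progenitor cell types in the mouse. Of its 5 probe sets only 1433924_at was tested, at 5.57, 5.43 and 5.59 in Lower-SP and 5.43, 5.38 and 5.09 in Upper-SP. The values of the groups touch, and the difference of 0.23 did not pass (95% interval -0.27 to 0.72, limma adjusted p = 0.46). The other 4 probe sets lay between 2.25 and 3.72.

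Ndn encodes necdin, a MAGE-family protein read from the paternal copy that restrains the cell cycle and, in mouse stem cells, is known as a p53 target tied to quiescence. Its brightest probe set, 1455792_x_at, read 10.40, 11.01 and 11.86 in Lower-SP and 11.24, 11.42 and 11.35 in Upper-SP. The Lower-SP arrays lay on both sides of all 3 Upper-SP arrays, with replicate 1 lowest and replicate 3 highest. The means were 11.09 ± 0.73 in Lower-SP and 11.34 ± 0.09 in Upper-SP, a difference of -0.25 (95% interval -0.997 to 0.495, limma adjusted p = 0.59). The other tested Ndn probe sets, 4 in number, had the same order of the 3 Lower-SP arrays, with differences from -0.37 to -0.17, and none passed. The 5 may share target sequence and are not independent measurements. The SD was 0.61 to 0.73 in Lower-SP and 0.09 to 0.38 in Upper-SP.

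The direction at Ndn turned on single arrays. Without Lower-SP replicate 3 the difference at 1455792_x_at was -0.64 and that at 1435383_x_at -0.61, and both passed (limma adjusted p = 0.042 and 0.029). Without Lower-SP replicate 1 the signs turned, to 0.09 and 0.04, and neither passed. Without Lower-SP replicates 1 and 2, the arrays with the most neutrophil transcripts, all 5 differences were positive, from 0.32 to 0.52. With array weights 1435383_x_at and 1415923_at passed as lower (-0.45 and -0.57). The remaining 3 Ndn probe sets stayed under 2.14 on every array.

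Igf2 encodes an insulin-like growth factor, and Igf2r encodes the receptor that removes it and sorts lysosomal enzymes. Igf2 was near the low end of the range at 1448152_at, with 5.36, 5.59 and 6.22 in Lower-SP and 6.58, 6.59 and 5.63 in Upper-SP. Upper-SP replicate 3 fell among the Lower-SP values. The difference of -0.54 did not pass (SE 0.35, 95% interval -1.36 to 0.27, limma adjusted p = 0.28). Of 19 alternatives it passed with array weights alone (-0.97, limma adjusted p = 0.0057). Its second probe set lay between 2.62 and 2.77. Igf2r read 5.31, 7.22 and 6.59 in Lower-SP and 5.82, 5.48 and 5.16 in Upper-SP at 1424112_at. Lower-SP replicate 1 lay with the Upper-SP arrays, whereas replicates 2 and 3 lay above all of them. The difference of 0.88 did not pass (SE 0.47, 95% interval -0.21 to 1.97, limma adjusted p = 0.19). It passed without Lower-SP replicate 1, at 1.42 (limma adjusted p = 0.032). The other Igf2r probe set, 1424111_at, read 5.38 to 5.69 in Lower-SP and 5.43 to 5.55 in Upper-SP, with a difference of 0.08 (95% interval -0.41 to 0.57).

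Grb10, Phlda2 and Gnas act inside the cell. Grb10 encodes an adaptor that binds the insulin and IGF1 receptors and restrains them, and is read from the maternal copy in most mouse tissues. At 1425458_a_at it read 8.83, 8.96 and 9.37 in Lower-SP and 9.02, 9.24 and 8.72 in Upper-SP, and the groups overlapped. The difference was 0.06 (SE 0.21, 95% interval -0.43 to 0.55, limma adjusted p = 0.85). At 1430164_a_at it read 6.30, 6.30 and 5.81 in Lower-SP and 6.61, 6.50 and 6.30 in Upper-SP. The groups met at 6.30 without overlap, and the difference of -0.33 did not pass (limma adjusted p = 0.32). The remaining Grb10 probe set exceeded log2 4 on Lower-SP replicate 3 alone (4.32).

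Phlda2 encodes a small pleckstrin homology domain protein, read from the maternal copy, that limits placental growth. Its single probe set read 5.02, 4.86 and 5.46 in Lower-SP and 6.72, 5.69 and 6.03 in Upper-SP. All Lower-SP arrays lay below all Upper-SP arrays, by 0.23 at the closest. The means were 5.11 ± 0.31 in Lower-SP and 6.15 ± 0.52 in Upper-SP, a difference of -1.03 (SE 0.32, 2.05-fold lower, limma adjusted p = 0.047). The call sat at the threshold and was lost in 11 of 18 alternatives, among them the omission of any single array other than Lower-SP replicate 3. The difference was -0.75 without Upper-SP replicate 1, the highest array (limma adjusted p = 0.16), and -0.68 without Lower-SP replicates 1 and 2.

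Gnas encodes the alpha subunit of the stimulatory G protein, which couples receptors to cAMP, and its locus also makes longer imprinted transcripts from other starts. At 1450186_s_at it read 12.99, 12.93 and 12.97 in Lower-SP and 13.53, 13.52 and 13.09 in Upper-SP. The Lower-SP arrays agreed within 0.07, and Upper-SP replicate 3 lay much closer to them than to its own group. The difference was -0.42 (SE 0.13, 1.34-fold lower, limma adjusted p = 0.046). This call was lost in 13 of 19 alternatives, among them each other scaling of the arrays, which left differences of -0.22 to -0.33, and the omission of any single array except Upper-SP replicate 3. With both neutrophil-bearing Lower-SP arrays omitted the difference was -0.42. At 1453413_at Gnas read 9.17, 8.88 and 8.95 in Lower-SP and 8.83, 8.82 and 8.50 in Upper-SP, a difference of 0.28 in the other direction that did not pass (limma adjusted p = 0.26). At 1443375_at the difference was 0.71 with 8.12, 8.48 and 7.60 in Lower-SP and 7.15, 6.78 and 8.15 in Upper-SP (limma adjusted p = 0.20), and it passed without Upper-SP replicate 3, at 1.11 (limma adjusted p = 0.042), and with array weights. With the 3 tested Gnas probe sets averaged into 1 value the difference was 0.19 (limma adjusted p = 0.30), so these data give no single direction for the gene.

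Sgce was called lower at its 1 tested probe set, 1420688_a_at, which is annotated to a RefSeq mRNA. It read 7.40, 7.25 and 7.75 in Lower-SP and 8.96, 9.06 and 8.66 in Upper-SP. Every Lower-SP array lay at least 0.91 below every Upper-SP array. The means were 7.47 ± 0.26 in Lower-SP and 8.90 ± 0.21 in Upper-SP, a difference of -1.43 (SE 0.21, 95% interval -1.92 to -0.94, limma adjusted p = 0.0046). Lower-SP replicate 3, with the lowest neutrophil average of its group, read highest of the 3. Without Lower-SP replicates 1 and 2 the difference was -1.14. The second Sgce probe set exceeded log2 4 on Lower-SP replicate 1 alone, at 4.02.

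Impact encodes an inhibitor of the amino acid sensing kinase GCN2, read from the paternal copy in the mouse, and its probe sets went opposite ways. At 1415911_at, annotated to a RefSeq mRNA, it read 8.29, 8.07 and 8.41 in Lower-SP and 9.40, 9.52 and 9.28 in Upper-SP. The groups were separated by 0.87, and the difference was -1.15 (SE 0.17, 2.21-fold lower, 95% interval -1.54 to -0.75, limma adjusted p = 0.0046). At 1446750_at, the brighter probe set and named by an expressed sequence tag, it read 10.75, 10.43 and 10.16 in Lower-SP and 9.51, 8.97 and 10.10 in Upper-SP. The difference was 0.92 (SE 0.29, limma adjusted p = 0.049), and the call was lost in 10 of 19 alternatives, including the omission of each of Lower-SP replicates 1 and 2 (limma adjusted p = 0.14 and 0.12) and Upper-SP replicates 1 and 2 (0.15 and 0.13). With Lower-SP replicates 1 and 2 both omitted the difference at 1446750_at was 0.63. The lower call at 1415911_at passed in all 19, with differences from -1.22 to -0.97. Averaged into 1 value the difference was -0.11 (limma adjusted p = 0.62), which hides both.

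**Figure D2:**
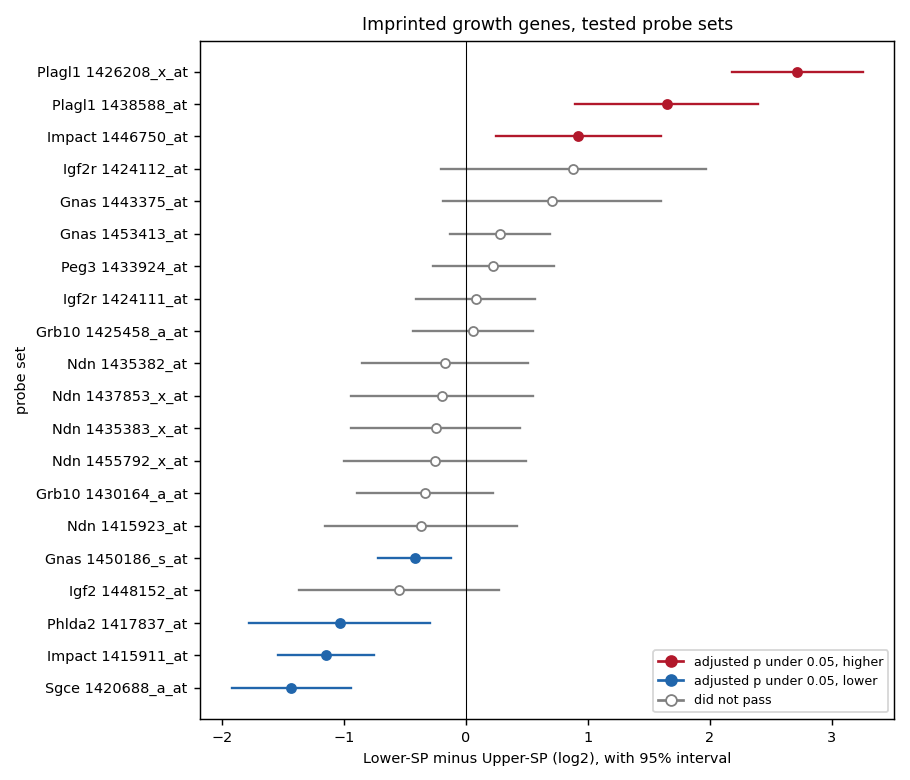
Difference Lower-SP minus Upper-SP (horizontal axis, log2) with its 95% interval for each of the 20 tested probe sets of the 10 genes, ordered by size. Filled red points passed as higher (3), filled blue points as lower (4), and open grey points did not pass. Plagl1 holds the top 2 places and Impact stands on both sides of 0.

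**Figure D3:**
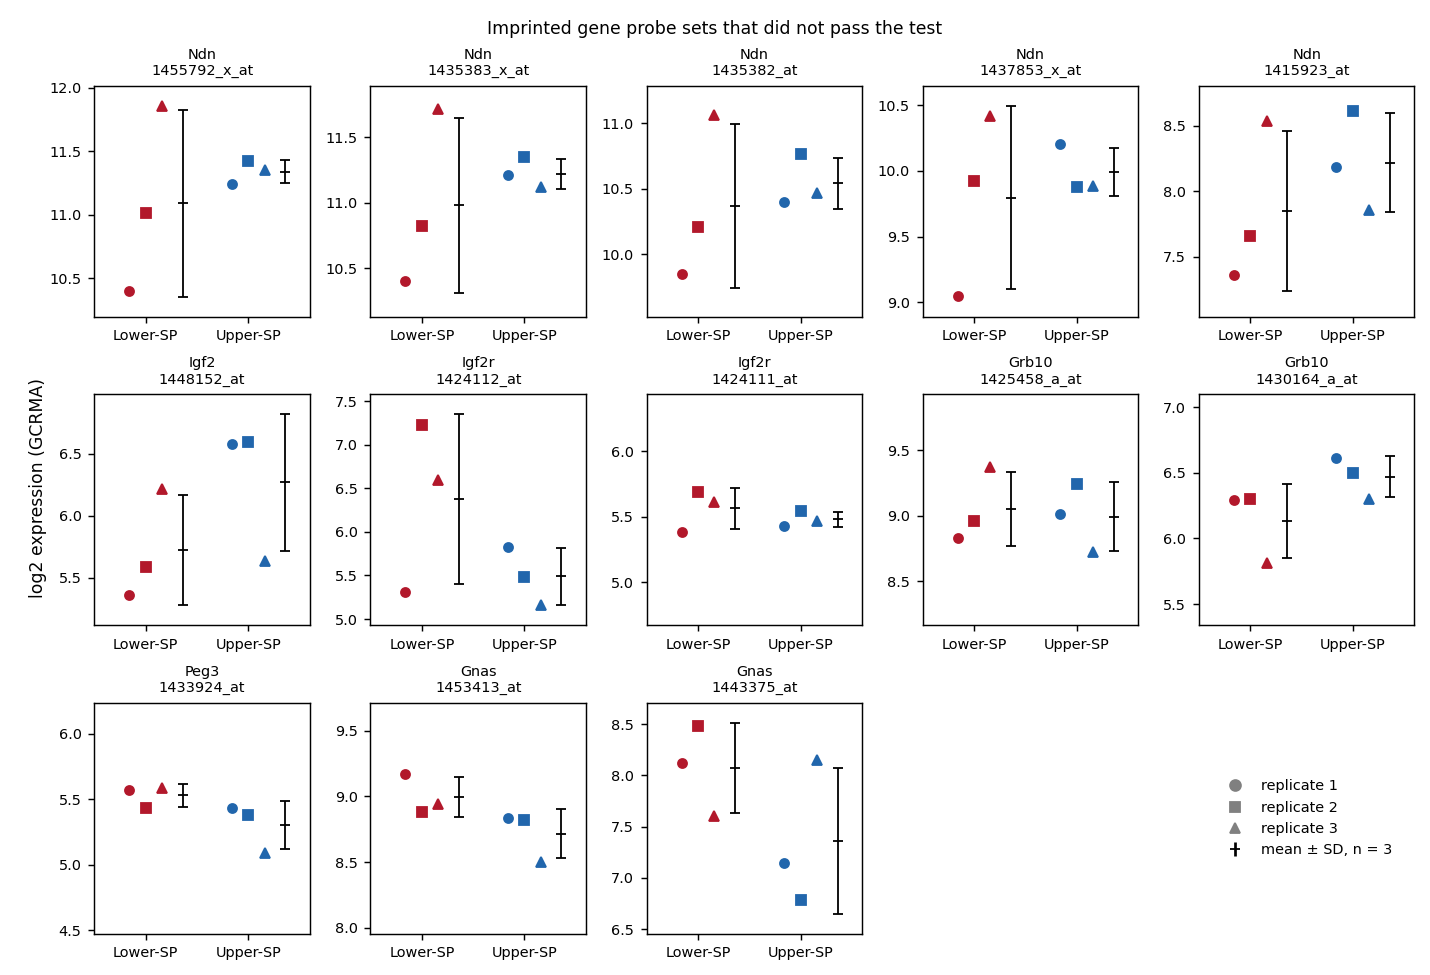
Log2 expression (vertical axis) of the 13 tested probe sets that did not pass, on each array, with Lower-SP in red at the left of each panel, Upper-SP in blue at the right and bars for the mean ± SD (n = 3). In the 5 Ndn panels the Lower-SP arrays span both ends of the range and the Upper-SP arrays lie within it, with Upper-SP replicate 2 slightly above at 1415923_at.

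Grouped by the copy they are known to be read from, the members did not move together. Of the paternally read genes, Plagl1 was higher, Sgce lower, Impact called in both directions, and Ndn, Igf2 and Peg3 were not called. Of the maternally read genes, Phlda2 was lower at the threshold, and Igf2r and Grb10 were not called. Gnas is read from both copies in most tissues.

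**Figure D4:**
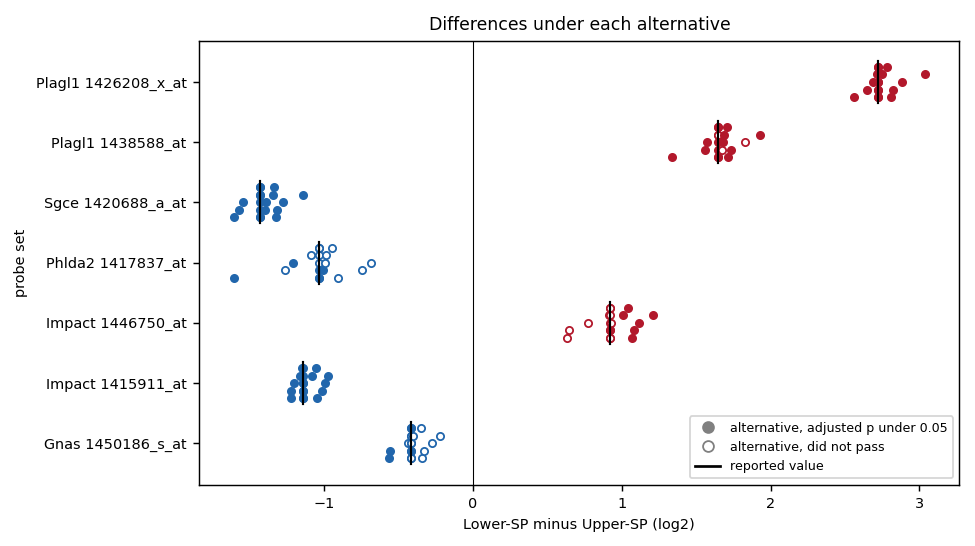
Difference Lower-SP minus Upper-SP (horizontal axis, log2) of the 7 called probe sets under each alternative: 19 points per probe set, 18 for Phlda2, filled where the adjusted p was under 0.05 and open where it was not, with the reported value as a black line. All points are filled for Plagl1 1426208_x_at, Sgce and Impact 1415911_at, and no point crosses 0. The point without Lower-SP replicates 1 and 2 rests on 1 Lower-SP array.

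The wider class of imprinted genes was read from a list of 56 further genes reported as imprinted in the mouse, of which 47 were on the array and 23 were tested. Of these 2 were higher and 4 lower in Lower-SP (26.1%, beside 27.7% of all genes), and the median difference was -0.25 (-0.24 over all genes). The count of 6 was 3 with Lower-SP replicate 2 omitted, 0 with Upper-SP replicate 1 omitted (limma, 6 at an unadjusted p under 0.05) and 1 with Upper-SP replicate 2 omitted. The 4 lowered genes were Kcnq1ot1, Nap1l4, Cd81 and Ppp1r9a. Kcnq1ot1, the noncoding RNA that silences genes of the cluster that also holds Phlda2, read 10.07, 9.74 and 10.01 in Lower-SP and 11.08, 10.89 and 10.46 in Upper-SP, a difference of -0.87 (SE 0.19, limma adjusted p = 0.015). The dimmer Kcnq1ot1 probe sets did not pass (-0.28, 0.18 and 0.85). Nap1l4, a histone chaperone gene next to Phlda2, read 9.66, 9.51 and 10.06 in Lower-SP and 10.65, 10.61 and 10.55 in Upper-SP (-0.86, limma adjusted p = 0.010). Cd81, a tetraspanin gene between Igf2 and Phlda2, differed by -0.67 and Ppp1r9a, a neighbour of Sgce, by -0.61. Each of the 4 lowered genes lost its call in at least 3 alternatives, and Ppp1r9a lost it with quantile normalization and with cyclic loess. None of the 4 passed with Upper-SP replicate 1 omitted.

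The 2 raised genes of that list were Ube3a and Trappc9. Ube3a, a ubiquitin ligase gene read from the maternal copy in neurons, read 11.17, 10.82 and 10.83 in Lower-SP and 10.22, 10.18 and 10.39 in Upper-SP, a difference of 0.68 (SE 0.15, limma adjusted p = 0.014), and a second probe set rose by 1.01. Trappc9, which encodes a vesicle tethering subunit, rose by 1.41 at its brightest probe set and fell by 2.03 at another, and both were called. At the brightest probe sets Ube3a lost its call in 4 of 19 alternatives, among them the omission of Upper-SP replicate 1 or 2, and Trappc9 in 7. Cdkn1c, the maternally read CDK inhibitor, differed by 0.38 without passing (8.48 ± 0.26 in Lower-SP and 8.10 ± 0.28 in Upper-SP, limma adjusted p = 0.24).

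**Figure D5:**
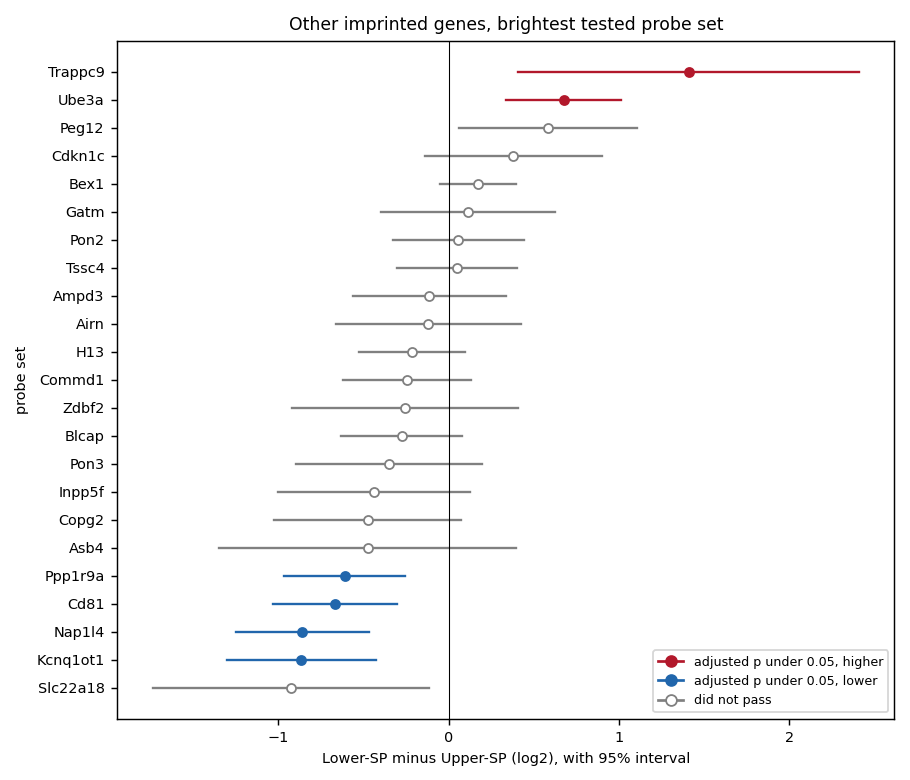
Difference Lower-SP minus Upper-SP (horizontal axis, log2) with its 95% interval for the brightest tested probe set of 23 further imprinted genes, ordered by size. Filled red points passed as higher (2), filled blue points as lower (4), and open grey points did not pass, among them Slc22a18 at the bottom (-0.93).

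IGF and insulin signalling genes, the pathway on which Igf2, Igf2r and Grb10 act, were called in both directions. Of 16 tested genes 2 were higher and 5 lower (43.8%, beside 27.7% of all genes, of which 7.05% were higher and 20.7% lower), with a median of -0.48 (-0.24 over all genes). The 16 include Pdk1, a pyruvate dehydrogenase kinase gene outside this pathway, which did not pass at its brightest probe set (-0.46). Igf1r, the receptor through which both IGFs signal, read 9.06, 9.08 and 8.92 in Lower-SP and 9.92, 9.85 and 9.89 in Upper-SP, a difference of -0.86 (SE 0.14, limma adjusted p = 0.0057), although a dimmer probe set rose by 1.86. Igfbp4, an IGF-binding protein gene, fell by 0.86 (11.61 ± 0.13 in Lower-SP and 12.47 ± 0.11 in Upper-SP), and its 3 other tested probe sets were also called lower. Pik3r1, the regulatory subunit of PI3 kinase, rose by 1.40 (9.35 ± 0.23 in Lower-SP and 7.94 ± 0.10 in Upper-SP). Nedd4, the ubiquitin ligase that binds Grb10, fell by 0.88 at its brightest probe set and rose by 0.86 at another. The lower call was lost with Upper-SP replicate 1 omitted. Pdpk1, the kinase that activates AKT, rose by 1.04. With Upper-SP replicate 1 omitted the counts were 1 higher and 2 lower, and with Upper-SP replicate 2 omitted 1 and 3. They were 2 and 3 with quantile normalization, with cyclic loess and with the replicate block. Igf1r, Igfbp4 and Pik3r1 passed in all 19 alternatives.

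Of 19 tested Gs and cAMP genes, the pathway of Gnas, 1 was higher and 6 lower (36.8%, beside 27.7% of all genes, of which 7.05% were higher and 20.7% lower), with a median of -0.27 (-0.24 over all genes). The G protein subunit gene Gng2 fell by 1.74, with 4.74, 4.38 and 4.83 in Lower-SP and 6.43, 6.67 and 6.08 in Upper-SP, and -0.10 at another probe set that did not pass. Prkacb, a catalytic subunit of protein kinase A, fell by 1.03, with -0.02 at another probe set that did not pass. Gnb1 fell by 0.83 and the transcription factor gene Crem by 0.74. Pde4d, which breaks down cAMP, rose by 0.90. That call passed in 10 of 19 alternatives and was lost on omitting any single array other than Lower-SP replicate 3. With Upper-SP replicate 1 omitted the counts were 0 higher and 4 lower.

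Genes of the GCN2 amino acid response, the branch that Impact restrains, went both ways, with 3 of 11 higher and 3 lower (54.5%, beside 27.7% of all genes) and a median of -0.29. Chac1 (1.51), Atf3 (1.11) and Sesn2 (0.74) were higher, and the stress factor Ddit3 (-0.79) and the phosphatase subunits Ppp1r15a (-0.78) and Ppp1r15b (-0.57) were lower. Chac1, Atf3, Sesn2, Ddit3 and Ppp1r15a are all known as genes that the response induces. Dimmer probe sets of Atf4, its main transcription factor, and of the target Trib3 were called lower (-1.28 and -0.90), while their brightest did not pass (0.56 and -0.29). For Gcn1, of the same list, a dimmer probe set was called higher (1.74) and the brightest did not pass (-0.91). With cyclic loess the counts were 4 higher and 1 lower. They were 2 and 1 when Lower-SP replicate 1 was omitted, 1 and 1 for either replicate 2, and 0 and 1 for Upper-SP replicate 1. The median turned to 0.10 with Lower-SP replicates 1 and 2 both omitted. Of 6 tested genes of the dystroglycan and sarcoglycan complex, in which Sgce acts, 1 was called (16.7%, beside 27.7% of all genes): Utrn, which fell by 0.92 where brightest and rose by 2.79 at a dimmer probe set. That call was lost on omitting Lower-SP replicate 1, Lower-SP replicate 2, Upper-SP replicate 1 or Upper-SP replicate 3. The list's median, -0.01, turned positive with each other scaling (0.0034 to 0.08).

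Genes listed for setting or maintaining imprints leaned higher, with 4 of 11 higher and 2 lower (54.5%, beside 27.7% of all genes). Over all genes 7.05% were higher and 20.7% lower. The list's median was 0.66 (-0.24 over all genes). Dnmt3a, a de novo DNA methyltransferase, read 9.14, 9.02 and 9.12 in Lower-SP and 8.11, 7.88 and 7.55 in Upper-SP at its brightest probe set, a difference of 1.25 (SE 0.19, limma adjusted p = 0.0052) that passed in all 19 alternatives. Of its other probe sets 1 rose by 0.71, 1 fell by 1.09 and 2 did not pass. The chromatin genes Arid4b and Arid4a rose by 1.79 and 0.98, and Ctcf, the insulator protein that reads imprints at the Igf2 locus, rose by 0.65. The other tested Ctcf probe set differed by 0.04 without passing, and the Ctcf call passed in 13 of 19 alternatives. Trim28, the corepressor that ZFP57 recruits, fell by 0.45 (12.47 ± 0.01 in Lower-SP and 12.92 ± 0.15 in Upper-SP), a call lost with cyclic loess, and Zfp445 fell by 0.42. Cyclic loess gave 6 higher and 0 lower. Omitting an array gave 2 and 1 for Lower-SP replicate 1, 3 and 0 for Lower-SP replicate 2, and 2 and 0 for Upper-SP replicate 1 or 2.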

How the data were processed

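RNA of sorted stem cells was amplified with 2 rounds of in vitro transcription and hybridised to Affymetrix mouse arrays, per the labels' protocols. The deposited values are log2 expression, and GCOS 1.0 and GCRMA are the tools the submitters' processing notes name. GCRMA corrects background by probe sequence and normalizes arrays to each other, so a difference is relative to the array. No build is given in the sources used here.

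Probe sets were named from GEO's platform annotation: of 45037 without 64 controls, 34945 carried 1 symbol, 932 several and 9160 none. Tests used limma 3.58.1 in R 4.3.3 (eBayes with trend, two-sided, residual df 4, prior df 3.80, Benjamini-Hochberg over 19613 probe sets, threshold 0.05), and were tested on simulated data. A gene is its brightest tested single-symbol probe set. Named genes are all members, every called further imprinted gene and up to 5 called genes of each other list with the largest change. Other probe sets, Ppp1r15b, Atf4, Trib3, Gcn1, Pdk1, Zfp445, Sdc1, Vwf, Camp, Ltf, Ngp, Cdkn1c, Slc22a18 and neighbours were added after their values were seen. Members and lists were chosen with earlier results of these data known. Nothing in the labels says whether same-numbered arrays of the groups came from the same pool of mice. The main fit treats the arrays as unpaired. P values measure the spread between 3 arrays a group, from pools of mice. Alternatives were other filters, scalings, variance models, a replicate block, gene summaries and left-out arrays. Leaving out both Lower-SP arrays with the most neutrophil transcripts was added after seeing the data. It left 1 Lower-SP array, whose spread cannot be measured, so differences alone are given for it.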

Additional observations from a re-analysis of the deposited data

How the results depend on the processing

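Only 3 arrays a group limit every call, and Igf2, Igf2r, Phlda2 and Peg3 lie close to the background level of log2 4. Scaling changed the balance of all calls: 37.9% of called probe sets were higher as deposited, 46.9% with quantile normalization, 45.7% with median centring and 51.5% with cyclic loess, which moved the median difference from -0.14 to -0.03.

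Of all probe sets 5520 were called, against 2931 with no filter, 10728 with array weights, 1967 unmoderated, 2715 with both neutrophil-bearing Lower-SP arrays (replicates 1 and 2) dropped, and 1666 to 6397 with 1 array left out. Of the members' probe sets 7 were called, against 4 with no filter, 11 with array weights, 3 unmoderated, 4 with a replicate block, and 3 to 8 with 1 array left out. Of the 10 genes 5 were called, against 2 with no filter, 3 with no trend, 2 unmoderated, 3 with median centring, 3 with cyclic loess, 2 with a replicate block, 3 with probe sets averaged, and 2 to 5 with 1 array left out. Of the further imprinted genes 6 were called, against 2 with no filter, 12 with array weights, 0 unmoderated (linear model in limma, 6 at an unadjusted p under 0.05), and 0 to 7 with 1 array left out. The causes were not tested. The replicate block, whose numbers share only a label (deviations of same-numbered arrays from their group means correlated at -0.051, -0.029 and -0.023, and 0 of 6 arrays correlated best with their own number), left 4180 calls in all and lost those at Phlda2, Gnas 1450186_s_at and Impact 1446750_at.

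Signs turned at Ndn and Grb10, which were not called on all 6 arrays. With 1 array left out, Ndn ranged from -0.636 to 0.0945 (1455792_x_at), -0.611 to 0.0438 (1435383_x_at), -0.515 to 0.0937 (1435382_at) and -0.505 to 0.182 (1437853_x_at), each highest without Lower-SP replicate 1 and lowest without Lower-SP replicate 3. With Lower-SP replicates 1 and 2 both dropped, these read 0.52, 0.49, 0.52 and 0.43, and 1415923_at read 0.32. Ndn 1435382_at read 0.0245 with cyclic loess. Grb10 1425458_a_at read -0.0708 with array weights, and with 1 array left out ranged from -0.0972 (without Lower-SP replicate 3) to 0.186; it was -0.075 without Upper-SP replicate 3.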

Other observations

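The tested genes next to the members in the RefSeq order of the GRCm38.p6 assembly were read in the same way. Up to 3 were taken on each side, a choice made after the values were seen. Untested genes were passed over and no limit was set on distance, so "beside" refers to this order alone. Of these 60 neighbours 5 were higher and 19 lower in Lower-SP (40%, beside 27.7% of all genes). Over all genes 7.05% were higher and 20.7% lower. Cd81, Kcnq1ot1, Nap1l4, Ppp1r9a and Ube3a were also counted among the further imprinted genes, and each lost its call with Upper-SP replicate 1 omitted. The count of neighbours was not repeated under the alternatives. In the stretch that holds Igf2 and Phlda2, Lsp1 (-1.63), Tspan32 (-1.04), Cd81 (-0.67), Kcnq1ot1 (-0.87), and Nap1l4 (-0.86) were called lower, Nadsyn1 was called lower by at least 1.82-fold with its Lower-SP mean under log2 4, and Slc22a18 (-0.93), Mrpl23 (-0.57), Tnni2 (-0.19), Tssc4 (0.05), Cdkn1c (0.38) and Dhcr7 (-0.16) did not pass. Beside Plagl1, the syntaxin gene Stx11 was higher (1.74), Utrn (-0.92) and the fucosidase gene Fuca2 (-1.19) were lower, and the nearest tested genes, Sf3b5 (-0.38) and Ltv1 (-0.63), did not pass. Beside Sgce, Ppp1r9a was called lower (-0.61), while Casd1 (0.05), Pon2 (0.06) and Pon3 (-0.35) did not pass. Beside Impact, the oxysterol-binding protein gene Osbpl1a (-0.98) and the zinc finger gene Zfp521 (-0.996) were lower. Beside Grb10, LOC102631979 was higher (1.75), and Upp1, the uridine phosphorylase gene (-0.90), the lymphoid regulator Ikzf1 (-0.54) and the pleckstrin gene Plek (-0.70) were lower. Beside Igf2r, Agpat4 was higher (0.85) and Tcp1 lower (-0.87), and beside Ndn, Ube3a (0.68) and Klf13 (0.38) were higher. Beside Gnas, Stx16 (-0.63), Npepl1 (-0.80) and Atp5e (-0.77) were lower, and beside Peg3, Zfp954 was lower (-0.996).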
